A study of Drosophila melanogaster with 3 samples.

Results

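Genes of the ecdysone and juvenile hormone pathways were examined in whole heads of adult Drosophila melanogaster. The set was chosen by name and held 10 genes: the receptor genes EcR, usp, Met and gce, the breakdown enzyme genes Jheh1, Jheh2, Jheh3 and Jhe, and the ecdysone-induced factor genes Eip75B and Eip74EF. Of these, 6 (EcR, usp, Met, gce, Jheh2 and Jhe) were on 7 probe sets with a single gene symbol, among 11982 named genes in all. Jheh1, Jheh3, Eip75B and Eip74EF were on no such probe set and were not analysed here. Every genotype was measured on 1 array, 3 arrays in total, so no value below has a replicate error and no difference could be tested.

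The PKA-DN flies carried p247-Gal4, tub-gal80[ts] and UAS-PKA-DN, a dominant-negative protein kinase A (PKA), and the PKA-CA flies carried the same driver and repressor with UAS-PKA-CA, a constitutively active one. The control flies carried one copy of the driver and repressor alone. The driver acts in the mushroom bodies, the brain centre for olfactory memory, and the Gal80 repressor under a tubulin promoter is inactivated by heat. All flies, controls included, were raised at 18 °C and held at 32 °C for 12 to 16 h, and heads came from flies 4 to 6 days old. The submitted design text names the transgenes in the opposite order to the raised and lowered activity it describes; PKA-DN is taken here as the form that lowers activity. The RNA came from all head tissues, of which the mushroom bodies are a small part, and PKA activity was not measured in these files. How many flies were pooled for an array is not stated in the labels.

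Ecdysone is a steroid hormone whose active form binds a dimer of the nuclear receptors EcR and Ultraspiracle (usp), which then switches on a cascade of early transcription factors. Juvenile hormone is a sesquiterpenoid made by the corpora allata and is sensed by the paralogous transcription factors Met and Germ cell-expressed (gce). It is degraded by an esterase (Jhe) and by epoxide hydrolases (the Jheh genes, which lie next to each other in the genome). In adult flies both hormones are known to act in reproduction, and ecdysone signalling is also known to act in sleep and in courtship memory.

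Values are MAS5 signals, a linear intensity scaled by the authors to the same trimmed mean of 500 on every array. Each log2 ratio divides the signal of the genotype named first by that of the one named second. Signals of different probe sets cannot be ranked against each other, so each gene is compared only with itself across arrays; where the probe set with the highest signal on a list is named, this follows a naming rule and is no ranking of transcript levels. The highest of 99 probe sets taken as negative controls had a signal of 77.8 on the PKA-DN array, 70.9 on the PKA-CA array and 77.0 on the control array. EcR, usp and Jheh2 were among the 5991 genes in the upper 50% by mean signal. Met and gce were below that but above the negative controls on all arrays, in a band of 1636 genes, and Jhe was not. The 3'/5' signal ratio, a measure of RNA integrity, was between 1.70 and 2.06 for GAPDH, 1.70 and 2.29 for actin, and 2.33 and 3.01 for eIF-4a, with none of the arrays lowest or highest on all of them. The 3 measured eye markers, the 5 glial markers and the 4 measured neuron markers were above the negative controls on every array. Of 5 male reproductive tract markers, 5 ovary and chorion markers and 5 gut markers, 1 each was (Acp95EF, Cp18 and LManII).

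No member above the negative controls differed by 1.5-fold in any comparison. Among EcR, usp and Jheh2 the count was 0 of 3 for PKA-DN relative to control, where 2.92% of the 5991 brighter genes passed 1.5-fold in either direction, 0 of 3 for PKA-CA relative to control, where 3.61% did, and 0 of 3 for PKA-CA relative to PKA-DN, where 4.22% did. For Met and gce it was 0 of 2 each time, against 12.8%, 13.9% and 13.6% of the dimmer band in the same order of comparisons. The median log2 ratio of EcR, usp and Jheh2 was -0.07 for PKA-DN relative to control, -0.26 for PKA-CA relative to control and -0.07 for PKA-CA relative to PKA-DN, beside medians of -0.01, -0.003 and 0.001 over the 5991 genes. Counts of 0 in sets this small lie near these shares and do not set the members apart from other genes.

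**Figure D1:**
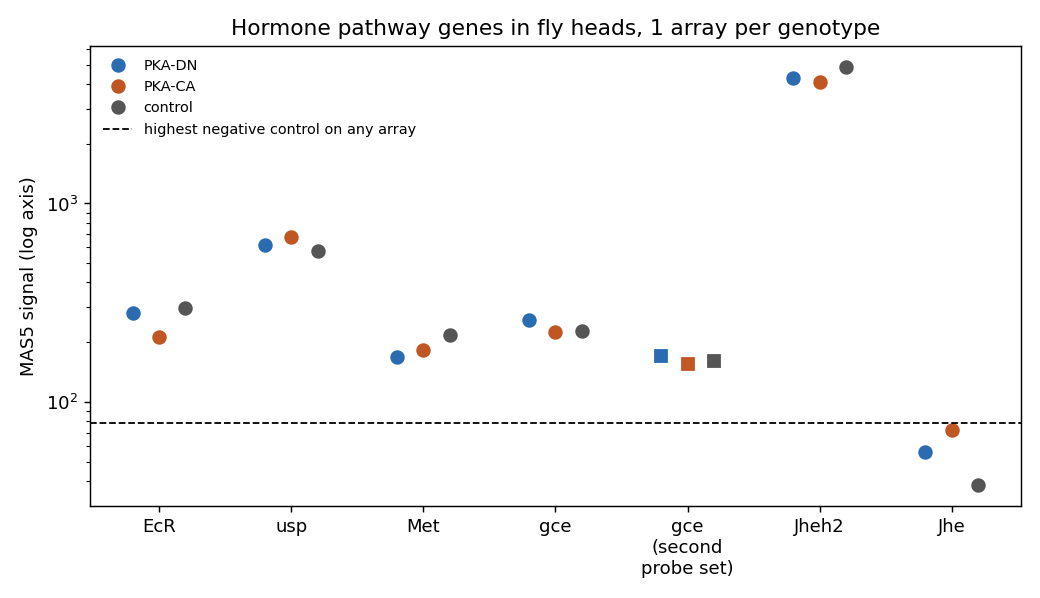
MAS5 signal (log axis) of each hormone pathway gene with a probe set, on the PKA-DN, PKA-CA and control arrays, with 1 point per array; squares are the second probe set of gce and the dashed line is the highest negative control on any array, 77.8. The points of each gene other than Jhe differ by at most 1.39-fold, EcR is lowest on the PKA-CA array, and those of Jhe lie below the line.

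The ecdysone receptor genes differed in opposite directions on the PKA-CA array. EcR, which encodes the hormone-binding partner, had a signal of 282 in PKA-DN heads, 212 in PKA-CA heads and 296 in control heads. The PKA-CA array was the low one, and the other 2 lay within 1.05-fold of each other. The log2 ratio of EcR was -0.07 for PKA-DN relative to control, -0.48 for PKA-CA relative to control and -0.41 for PKA-CA relative to PKA-DN. The second of these, 1.39-fold lower, was the largest difference of any member above the negative controls. It lay below the 5th percentile of the 5991 genes, which was -0.43, while the other EcR ratios lay inside the range from the 5th to the 95th percentile. EcR lies just above the cut between the brighter and dimmer genes, with a mean signal of 261 against a cut of 254, and its ratio of -0.48 would lie inside the 5th to 95th percentile range of the dimmer band, from -0.72 to 0.59. EcR belongs to the longest 25% of the brighter genes by annotated length, a class with a median log2 ratio of 0.07 for PKA-CA relative to control, and the part of length in its value was not tested. The EcR probe set, with the suffix _s_at, is of a type that can match several transcripts, and the EcR isoforms cannot be told apart with it.

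Ultraspiracle (usp), the fly RXR homologue and dimer partner of EcR, had a signal of 619 in PKA-DN heads, 680 in PKA-CA heads and 577 in control heads. Here the PKA-CA array was the high one. The log2 ratios of usp were 0.10 for PKA-DN relative to control, 0.24 for PKA-CA relative to control and 0.13 for PKA-CA relative to PKA-DN, all inside the 5th to 95th percentile range. The balance of the partners, taken as the log2 ratio of EcR minus that of usp, differed by -0.17 for PKA-DN relative to control, -0.72 for PKA-CA relative to control and -0.55 for PKA-CA relative to PKA-DN. This measure is not affected by a constant scaling of an array, and the PKA-CA value corresponds to 1.64-fold less EcR signal relative to usp signal than in control heads. It combines the ratios of EcR and usp, neither of which reached 1.5-fold. A range of such differences over pairs of genes was not computed, so the value cannot be placed among other genes.

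**Figure D2:**
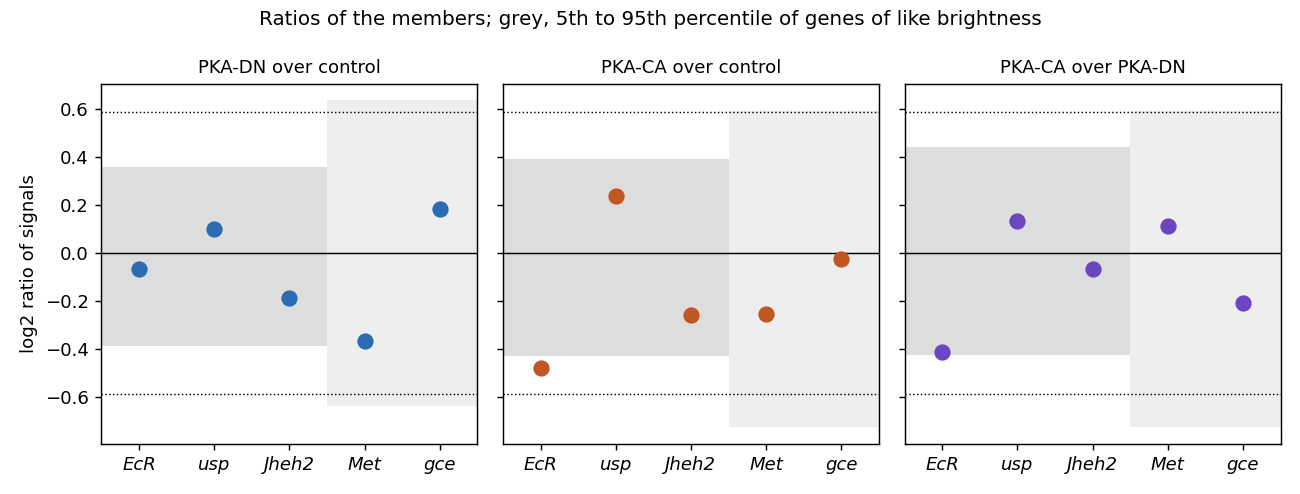
Log2 ratio of signals for EcR, usp, Jheh2, Met and gce in 3 comparisons, with 1 array per genotype. Grey shows the 5th to 95th percentile of the 5991 brighter genes (EcR, usp, Jheh2) or of the 1636 dimmer ones (Met, gce), and dotted lines mark 1.5-fold. EcR in PKA-CA relative to control, at -0.48, is the one point outside its grey range, and it would lie inside the range of the dimmer genes.

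The 5 genes whose pair of log2 ratios relative to control lay closest to that of EcR, by Euclidean distance over the 3 arrays among the 5991 genes, were tra2, CG17928, CG13040, Irc and CG13077, at distances from 0.013 to 0.031. The splicing regulator gene tra2, for example, had log2 ratios of -0.07 in PKA-DN heads and -0.47 in PKA-CA heads relative to control. With 3 arrays, such closeness describes these arrays only.

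Of the juvenile hormone receptor genes, Met was highest and gce close to lowest in control heads. Met (Methoprene-tolerant), a bHLH-PAS factor that binds the hormone, had a signal of 169 in PKA-DN heads, 182 in PKA-CA heads and 217 in control heads. Both PKA arrays lay below the control array, with log2 ratios of -0.36 in PKA-DN heads and -0.25 in PKA-CA heads relative to control, and Met had 0.11 for PKA-CA relative to PKA-DN. The paralogue gce had a signal of 259 in PKA-DN heads, 224 in PKA-CA heads and 228 in control heads. For gce the PKA-DN array was the high one, and the other 2 lay within 1.02-fold of each other. Its log2 ratios were 0.18 for PKA-DN relative to control, -0.02 for PKA-CA relative to control and -0.21 for PKA-CA relative to PKA-DN. The second probe set of gce had signals of 170 in PKA-DN heads, 155 in PKA-CA heads and 161 in control heads, with log2 ratios of 0.08, -0.05 and -0.13 in the same comparisons, so both probe sets gave the arrays in the same order. The PKA-CA relative to control ratio of gce changed sign under 2 other scalings, to 0.02 with quantile normalization and 0.02 with cyclic loess. The log2 ratio of Met minus that of gce was -0.55 for PKA-DN relative to control, -0.23 for PKA-CA relative to control and 0.32 for PKA-CA relative to PKA-DN. A range of such differences over pairs of genes was not computed here either. All ratios of Met and gce lay inside the 5th to 95th percentile range of the dimmer band, which ran from -0.64 to 0.64 for PKA-DN relative to control.

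Among the breakdown enzymes, Jheh2, a juvenile hormone epoxide hydrolase gene, was slightly lower on both PKA arrays. Its signal was 4289 in PKA-DN heads, 4090 in PKA-CA heads and 4885 in control heads. The log2 ratios of Jheh2 were -0.19 for PKA-DN relative to control, -0.26 for PKA-CA relative to control and -0.07 for PKA-CA relative to PKA-DN, all within the 5th to 95th percentile range. Fat body markers also differed between the arrays. The summed signal of the 4 female fat body markers (Yp1, Yp2, Yp3 and fit), all above the negative controls, was 100504 in PKA-DN heads, 85861 in PKA-CA heads and 115493 in control heads, in the same order as Jheh2. Within this sum the 3 yolk protein genes were lower on both PKA arrays than on the control array, while fit was higher on both, with log2 ratios of 0.19 and 0.16. That of the 5 head and other fat body markers, of which Fbp1 was below the negative controls on every array, was 71760 in PKA-DN heads, 57982 in PKA-CA heads and 64107 in control heads. These markers also differed in direction. Relative to control, Lsp2 had log2 ratios of 0.68 in PKA-DN heads and 0.26 in PKA-CA heads, and CG11426 had 0.26 and 0.02. On the same arrays apolpp had -0.21 and -0.40, and Lsd-1 had 0.01 and -0.43. The part of fat body RNA in the Jheh2 difference was not tested, and in whole heads fewer cells of a type and less RNA per cell cannot be told apart.

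Jhe, the juvenile hormone esterase gene, had a signal of 55.7 in PKA-DN heads, 72.1 in PKA-CA heads and 38.3 in control heads. It was not above the highest negative control on the PKA-DN and control arrays and was barely above it on the PKA-CA array, so no fold is given for it.

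The 3 brighter members had the PKA-DN array between the other 2 (EcR, usp and Jheh2). The control array was in the middle for gce, within 1.02-fold of PKA-CA, and the PKA-CA array was in the middle for Met. Over the 5991 genes the control array was in the middle for 37.1% and the PKA-DN array for 34.1%.

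Other genes of both pathways were drawn from 7 lists with 72 names, and 63 of these had a probe set, with 35 among the 5991 brighter genes. On neither PKA array did any of the 35 reach 1.5-fold relative to control. Of all 5991 genes, 2.92% did in PKA-DN heads and 3.61% in PKA-CA heads, so these counts of 0 lie near the shares. For PKA-CA relative to PKA-DN, 2 were 1.5-fold or more higher, where 2.22% of all 5991 genes were, and 0 were 1.5-fold or more lower, where 2% were. By direction alone, 11 of 35 were higher and 24 lower in PKA-DN than in control (48.3% and 51.7% of all genes), with a median log2 ratio of -0.10. For PKA-CA relative to control 17 were higher and 18 lower (49.5% and 50.5% of all genes), and the median was -0.01. For PKA-CA relative to PKA-DN 24 were higher and 11 lower (50.2% and 49.8% of all genes), and the median was 0.07. Both ratios relative to control share the control array. Of the 35, 19 belong to the longest 25% of the brighter genes by annotated length. In that class 39.64% of genes were higher for PKA-DN relative to control and 63.3% for PKA-CA relative to control. For PKA-CA relative to PKA-DN 70.45% were higher. The part of length in the counts of the 35 genes was not tested.

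The 2 genes past 1.5-fold were transcription factors of the ecdysone response. Eip93F (E93), an ecdysone-induced factor that specifies adult stages, had a signal of 993 in PKA-DN heads, 1604 in PKA-CA heads and 1306 in control heads. Its log2 ratio was 0.69 for PKA-CA relative to PKA-DN, with -0.39 in PKA-DN heads and 0.30 in PKA-CA heads relative to control. A dimmer second probe set of Eip93F, at 126, 103 and 102 on the PKA-DN, PKA-CA and control arrays, had -0.29 for PKA-CA relative to PKA-DN, so the probe sets of this gene disagree in direction. The orphan nuclear receptor gene svp, the fly COUP-TF homologue, had a signal of 712 in PKA-DN heads, 1117 in PKA-CA heads and 831 in control heads, and its log2 ratio was 0.65 for PKA-CA relative to PKA-DN. A second probe set of svp, at 293, 239 and 268 on the same arrays, again had the opposite sign, at -0.29. With all probe sets of a gene averaged, neither gene reached 1.5-fold. Of the dimmer list genes above the negative controls on all arrays, Cyp6t3, E23 and Hr3 passed 1.5-fold by their brightest probe set. For PKA-DN relative to control the log2 ratio was 0.64 for Cyp6t3, -0.63 for E23 and -0.69 for Hr3. For PKA-CA relative to PKA-DN it was -0.22, 0.64 and 0.85 in the same order. In the dimmer band 12.8% and 13.6% of genes passed 1.5-fold in these comparisons.

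The list of ecdysone-responsive transcription factors and nuclear receptors, for short the ecdysone-responsive factors, held 15 names. Of these, 14 were measured, 8 of them among the brighter genes. With the brightest probe set of each gene, all 8 were below the control in PKA-DN heads, where 51.7% of all genes were. Their median log2 ratio was -0.13. Hr96, at -0.01, was above 0 after cyclic loess (0.01) or quantile normalization (0.002). Second probe sets of Eip93F and svp, above the negative controls on all arrays, were above 0 in this comparison, at 0.30 and 0.12. Further probe sets of Hr39 and ftz-f1 were below 0. For PKA-CA relative to control 4 of the 8 were higher and 4 lower, where 49.5% of all genes were higher. The median of the 8 was 0.03, which turned to -0.003 with arrays centred and -0.06 when the probe sets of each gene were averaged. For PKA-CA relative to PKA-DN 6 were higher and 2 lower (Eip78C and Hr96), and their median was 0.17. In this comparison 50.2% of all genes were higher, and 70.45% of the longest 25%, to which 6 of the 8 belong. Hormone receptor-like 39 (Hr39), an orphan receptor gene, had a signal of 423 in PKA-DN heads, 500 in PKA-CA heads and 458 in control heads, and its log2 ratio of 0.13 for PKA-CA relative to control was -0.29 when its 4 probe sets were averaged. One of these was not above the negative controls on any array, and the 3 above them had 0.13, 0.26 and -0.39. The competence factor gene ftz-f1 had a signal of 397 in PKA-DN heads, 471 in PKA-CA heads and 485 in control heads, with log2 ratios of -0.29 for PKA-DN relative to control and 0.25 for PKA-CA relative to PKA-DN. Its second probe set, at 80.3, 131 and 140 on the same arrays and so barely above the negative controls in PKA-DN heads, had ratios of -0.80 and 0.70 in these comparisons, past 1.5-fold. vri, the brightest of the list and also a clock gene, had log2 ratios of -0.13 in PKA-DN heads and -0.04 in PKA-CA heads relative to control.

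Genes of different length and markers of several cell types also differed between the arrays. The longest 25% of the brighter genes, to which 6 of the 8 factors belong, had a median log2 ratio of -0.06 for PKA-DN relative to control, 0.07 for PKA-CA relative to control and 0.12 for PKA-CA relative to PKA-DN, while the shortest 25% had 0.01, -0.05 and -0.06. All 4 measured neuron markers (elav, nSyb, brp and futsch) were lower in PKA-DN than in control heads and higher in PKA-CA than in PKA-DN heads. Their summed signal was 4743 in PKA-DN heads, 5527 in PKA-CA heads and 5206 in control heads, and the pan-neuronal gene elav alone had 421, 637 and 619 on the same arrays. Of all 5991 genes, 51.7% were lower in PKA-DN than in control heads and 50.2% higher in PKA-CA than in PKA-DN heads. Blood cell markers (PPO1, PPO2, Hml, NimC1 and Sr-CI) also differed: 5 of 5 were lower in PKA-DN than in control heads, with a median log2 ratio of -0.77, and 4 of 5 were higher in PKA-CA than in PKA-DN heads, with a median of 0.31. Their summed signal was 2509 in PKA-DN heads, 3100 in PKA-CA heads and 5054 in control heads. For PKA-CA relative to control the log2 ratio was -1.36 for PPO1 and -1.46 for PPO2. In that comparison Hml had -0.08, NimC1 -0.22 and Sr-CI 0.02. The summed signal of the 4 measured muscle markers was 4348 in PKA-DN heads, 5340 in PKA-CA heads and 3285 in control heads. Prm had the highest signal in this sum, and Prm, up and Tm2 were higher on both PKA arrays than on the control array. Act88F, above the negative controls on 1 array only, had log2 ratios of -0.31 in PKA-DN heads and -0.35 in PKA-CA heads relative to control. Of the 4 oenocyte markers, Cyp4g1 had 541 in PKA-DN heads, 76.0 in PKA-CA heads and 766 in control heads. Relative to control, bond had log2 ratios of -0.10 in PKA-DN heads and -0.10 in PKA-CA heads, and Drat had 0.39 and 0.29. Fad2 (desatF) was not above the negative controls on any array. The summed signal of the 4 was 7376 in PKA-DN heads, 6515 in PKA-CA heads and 6344 in control heads. That of the 5 glial markers was 18610, 16957 and 19663 on the same arrays. Relative to control in PKA-DN and PKA-CA heads, alrm had log2 ratios of -0.69 and -0.74, and Gs2 -0.11 and -0.32. On these arrays repo had -0.11 and 0.05, nrv2 0.16 and -0.07, and moody 0.08 and 0.20. The 3 measured eye markers summed to 32411 in PKA-DN heads, 32717 in PKA-CA heads and 32873 in control heads. The part of gene length or of any of these cell types in the values of the hormone pathway genes was not tested.

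**Figure D3:**
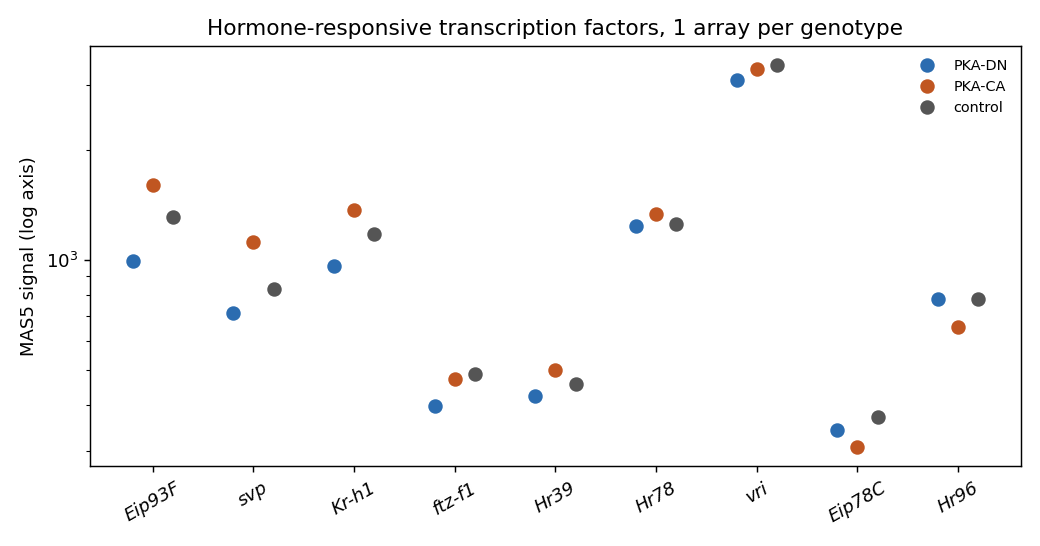
MAS5 signal (log axis) on the PKA-DN, PKA-CA and control arrays for the 8 ecdysone-responsive factors among the brighter genes and for Kr-h1, a juvenile hormone response gene, with 1 point per array, ordered by the log2 ratio of PKA-CA relative to PKA-DN. Eip93F, svp, Kr-h1, Hr39 and Hr78 are lowest on the PKA-DN array and highest on the PKA-CA array. The second probe sets of Eip93F and svp, not drawn, are highest on the PKA-DN array.

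Krüppel homolog 1 (Kr-h1), the primary target gene of the juvenile hormone receptors, was singled out after its values were seen. It had a signal of 961 in PKA-DN heads, 1365 in PKA-CA heads and 1179 in control heads. The log2 ratio of Kr-h1 was -0.29 for PKA-DN relative to control, 0.21 for PKA-CA relative to control and 0.51 for PKA-CA relative to PKA-DN, and it too is in the longest 25% of genes. JhI-21, a juvenile hormone-inducible gene of the amino acid transporter family and the brightest of its list, went the other way between the PKA arrays. Its signal was 3437 in PKA-DN heads, 2620 in PKA-CA heads and 2411 in control heads, a log2 ratio of 0.51 for PKA-DN relative to control and -0.39 for PKA-CA relative to PKA-DN. For PKA-CA relative to PKA-DN, 1 of the 4 brighter genes of juvenile hormone response and turnover (Kr-h1) was higher and 3 were lower, and their median was -0.26. Of all 5991 genes, 50.2% were higher and 49.8% lower in this comparison.

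Most steroidogenic enzyme genes and jhamt were not above the negative controls. Of 12 ecdysone synthesis genes, 7 (the steroidogenic enzyme genes nvd, sro, spo, spok, phtm, dib and sad) were not above the negative controls on any array. The share of all genes below them was not computed. The enzyme gene Cyp6t3 was above them on all 3 arrays, at 132 in PKA-DN heads, 113 in PKA-CA heads and 84.8 in control heads. The brightest probe set of shd was above them on 2 arrays, at 130, 67.5 and 77.3 in the same order. The synthesis genes among the brighter genes were Npc1a, Start1 and mld, which act in sterol transport or in transcription. Npc1a, the brightest, had 1487 in PKA-DN heads, 1593 in PKA-CA heads and 1602 in control heads. The juvenile hormone acid methyltransferase gene jhamt, which marks the corpora allata, was below the negative controls on every array, at 58.0 in PKA-DN heads, 44.3 in PKA-CA heads and 67.8 in control heads. The 5 brighter genes on the juvenile hormone synthesis list (Fpps, Hmgs, Idi, qm and AstC) act in the general isoprenoid pathway or, for AstC, as an allatostatin peptide gene. Their median log2 ratio was 0.06 for PKA-DN relative to control and 0.08 for PKA-CA relative to control, and AstC, the brightest, had -0.06 and 0.10.

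Of the 3 brighter genes for ecdysone uptake, clearance and membrane reception, 2 were higher and 1 was lower than in control heads on each PKA array. Of all 5991 genes, 48.3% were higher in PKA-DN and 49.5% in PKA-CA than in control heads. Oatp74D, the ecdysone importer gene, had a signal of 658 in PKA-DN heads, 666 in PKA-CA heads and 504 in control heads, or log2 ratios of 0.38 and 0.40 relative to control. Cyp18a1, whose product inactivates ecdysteroids, had 848 in PKA-DN heads, 975 in PKA-CA heads and 804 in control heads, and its second probe set, with 813, 763 and 722 on the same arrays, was also lowest in control heads. DopEcR, the membrane receptor gene for dopamine and ecdysone and the brightest of this list, was the lower one, with 1037 in PKA-DN heads, 1091 in PKA-CA heads and 1277 in control heads.

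Of the coregulator and cofactor genes, 8 were among the brighter genes. In PKA-DN relative to control heads 2 were higher and 6 lower, where 48.3% and 51.7% of all genes were. Nup358, at -0.004, was among the lower ones and was above 0 with cyclic loess (0.005). TP53INP (DOR), an EcR coactivator gene and the brightest of the 8, had log2 ratios of 0.13 in PKA-DN heads and -0.03 in PKA-CA heads relative to control. The widest difference was that of nejire (nej), the fly CBP acetyltransferase gene, with 390 in PKA-DN heads, 459 in PKA-CA heads and 575 in control heads. Its log2 ratios of -0.56 and -0.33 relative to control turned to 0.96 and 1.13 when a second probe set, not above the negative controls on any array, was averaged in. Of the other ecdysone-inducible genes, ImpL2, an insulin-binding protein gene and the brightest of 4, had 2612 in PKA-DN heads, 2744 in PKA-CA heads and 2449 in control heads. MsrA (Eip71CD), a methionine sulfoxide reductase gene, had the widest difference of these 4, with a log2 ratio of 0.41 for PKA-CA relative to PKA-DN.

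**Figure D4:**
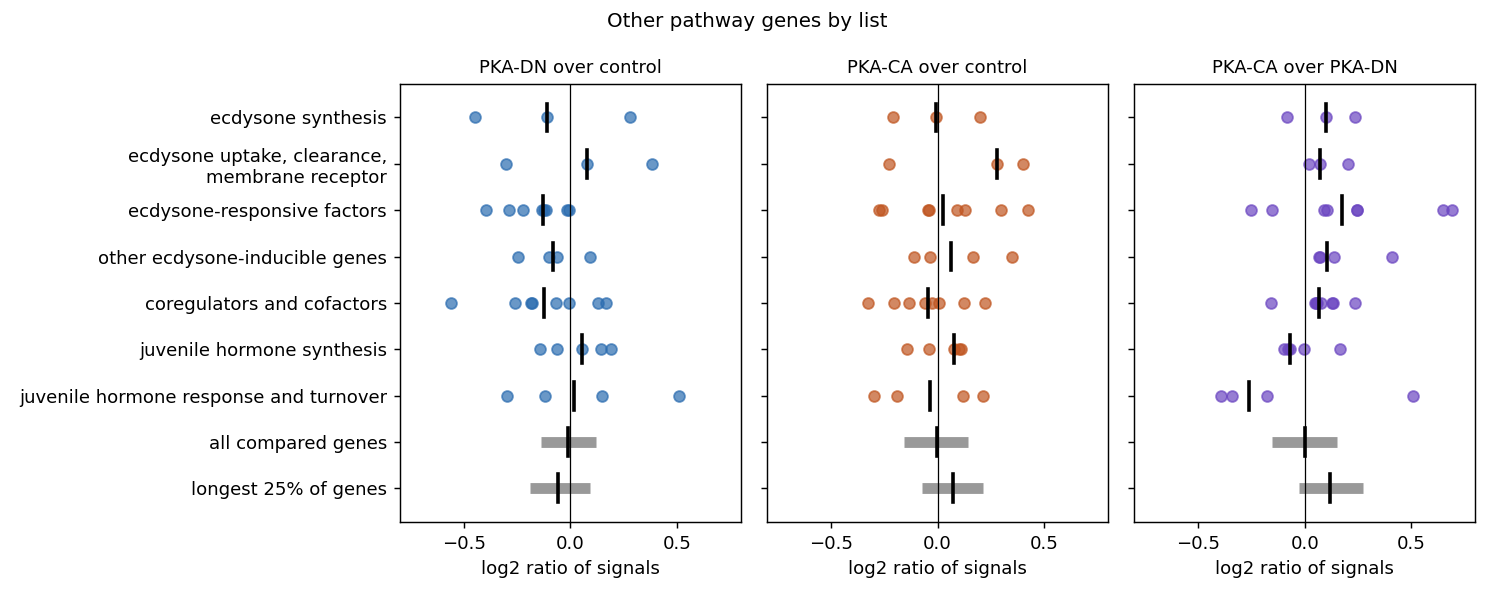
Log2 ratio of signals for the 35 other pathway genes among the brighter genes, by list, in 3 comparisons; each point is a gene, black bars are medians, and grey bars run from the 25th to the 75th percentile of the 5991 brighter genes and of the longest 25% of them. In PKA-DN relative to control the 8 ecdysone-responsive factors lie below 0 (Hr96, at -0.01, was above 0 under other scalings), and in PKA-CA relative to PKA-DN Eip93F and svp lie farthest to the right.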

How the data were processed

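Total RNA from heads was labelled and hybridized to 3 Affymetrix arrays, 1 per genotype. The deposited intensity values, 1 signal for each of 18952 probe sets, had been computed by the authors with MAS5 (per the submitters' processing notes). The MAS5 version and settings and any detection calls were not part of the sources used. The mean signal without the highest and lowest 2% was 500 on every array, so the authors' values were used as deposited, as log2 values without a pseudocount. Gene names came from the platform's annotation (13647 with a single symbol, 13544 updated by RefSeq gene identifier, Release 6), and list names through current symbols. The brightest probe set represented a gene, and the 50% of genes with the highest mean log2 signal (above 254) were compared. Negative controls were 99 of 100 AFFX-Dm probe sets, after 1 above 1000 was left out. Members, lists and the rule for named genes (all members, list genes past 1.5-fold, the brightest of each list) were chosen with earlier results of these data known, and further genes are named after their values were seen. With 1 array a group no test was possible, and the number of arrays limits precision. Python 3.11.15, pandas 2.3.3, R 4.3.3 and limma 3.58.1 were used; ratio and count code was checked on simulated data.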

Additional observations from a re-analysis of the deposited data

How the results depend on the processing

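The alternatives were quantile normalization, cyclic loess, arrays centred on the median, 64 added to each signal, the mean of all probe sets of a gene, no filter on low signal, and the upper 25% by signal. No paired analysis was possible because each group held 1 array, and no array could be left out for the same reason. Of 75 ratios of EcR, usp, Met, gce and Jheh2 under the 5 alternatives that do not change the filter, 2 crossed 0, both of gce in PKA-CA relative to control, and none moved by more than the median absolute log2 ratio of all compared genes (0.13, 0.15 and 0.15 in the 3 comparisons). EcR, usp, Met and Jheh2 have 1 probe set each, so the mean of all probe sets could not change their ratios, which are counted among the 75. Without a filter, the number of genes at 1.5-fold was 2828 for PKA-DN relative to control, 3076 for PKA-CA relative to control and 3079 for PKA-CA relative to PKA-DN, and in the upper 25% it was 78, 64 and 106, from 11982 and 2996 genes; the counts without a filter include probe sets at the level of the negative controls. Without a filter 1 member passed 1.5-fold in PKA-CA relative to control, namely Jhe, whose signals are at the level of the negative controls. The median of the 6 members then was 0.02 for PKA-DN relative to control and 0.02 for PKA-CA relative to PKA-DN, opposite in sign to the medians of the 3 brighter ones. For the 8 ecdysone-responsive factors, 0 of which were higher in PKA-DN than in control, 1 was higher with quantile normalization and 1 with cyclic loess. When probe sets were averaged, the PKA-CA relative to PKA-DN ratio of Eip93F was 0.20, against 0.69, and that of svp 0.53, against 0.65, so that neither passed 1.5-fold. The svp mean includes a probe set not above the negative controls on any array, at 1.23, beside 0.65 and -0.29 for the others. These alternatives on the other pathway genes were chosen after seeing the data.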
